A study of Mus musculus with 180 samples.

Results

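Apatinib, Telatinib, Vandetanib and Vatalanib are clinical kinase inhibitors (CKIs) sold as inhibitors of KDR, the main signalling receptor for vascular endothelial growth factor (VEGF). They were taken by name as the CKIs of this series whose designated target is a VEGF receptor, leaving Lenvatinib aside, and they account for 12 of the 180 RNA-seq samples, 3 for each drug. Mouse bone marrow-derived macrophages (BMDM), grown from wild-type C57/BL6 males, were given 1 CKI or the solvent DMSO for 1 h and then lipopolysaccharide (LPS) at 10 ng/mL for 2 h, so that every group compared here, the 6 DMSO samples included, carried LPS. The other 54 CKIs, with 162 samples, were used as a second reference. The CKIs were dosed by their affinity for the target and the 4 doses differed, Vandetanib being given at the lowest concentration, followed by Telatinib, Apatinib and Vatalanib. Values of the 4 drugs are therefore set side by side and were not tested against each other.

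Values are exonic read counts that the authors scaled to invariant genes and rounded, called normalized values here. They summed to between 9481416 and 11653417 in the 18 samples of the 4 drugs and DMSO. The labelled cell type was borne out by its markers, as 9 of 10 macrophage markers were expressed highly enough to be tested. The other, Marco, reached at most 6 in any sample. The 10 markers had summed values of 101957 to 220469 in these groups, and none was at 0 in all samples of a group. Endothelial markers summed to between 2 and 15 in the same samples, and Tek, Cldn5 and Emcn were at 0 in all of them. Neutrophil markers summed to 432 to 1293 with DMSO, to 704 to 1824 with Apatinib and to 625 to 1639 with Telatinib, and mitochondrially encoded transcripts took 0.760% to 1.95% of the total with DMSO and 0.731% to 2.57% with Telatinib. Their part in the results below was not tested. The study describes the 3 samples of a group as independent biological replicates. The labels name no animal for any of them.

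VEGF ligands act through the receptor tyrosine kinases FLT1, KDR and FLT4, with neuropilins as co-receptors, and are best known for driving the growth of blood vessels. Inhibitors of KDR bind the ATP pocket and commonly also hold related receptors such as PDGFRB, KIT and CSF1R, the last being the receptor through which macrophages receive their survival signal. The drugs differ in their scaffold. Vatalanib is an anilinophthalazine and Telatinib a furopyridazine, and both carry a chloroanilino group and a pyridine joined through a short linker. Apatinib is a nicotinamide with a pyridylmethylamino group, whereas Vandetanib is an anilinoquinazoline without a pyridylmethyl group. By the kinobeads affinities the study used to set doses, PDGFRB was the intended target of Telatinib and Vatalanib, RIPK3 that of Apatinib and RIPK2 that of Vandetanib. RIPK2 relays signals from the NOD receptors, and RIPK3 drives necroptosis.

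The receptors for which these drugs were designed were weakly expressed in the DMSO samples. Per kilobase of exon, the normalized value was 23 for Kdr, 2.77 for Flt1 and 0.314 for Flt4, against 6449 for Csf1r. The co-receptors were abundant, with 646 per kilobase for Nrp2 and 338 for Nrp1. Pdgfrb stood at 3.79 per kilobase and Kit at 2.83, whereas the kinases of the NOD and necroptosis pathways reached 421 for Ripk2 and 251 for Ripk3. Among the ligands, Vegfb stood at 14.2, Pgf at 8.72 and Vegfc at 7.80 per kilobase, and Vegfa at 0.399. The order therefore ran from Csf1r, through the neuropilins and RIP kinases taken as a group, to the VEGF receptors. Within that group Ripk2 (SD 181) lay between Nrp2 (SD 160) and Nrp1 (SD 45.6), and Ripk3 had an SD of 83.2. These neighbours, like Flt1 and Kit, were too close, and too variable between samples, to be ordered.

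Kdr had values of 46 to 356 over the 6 DMSO samples, with a median of 158.5. It stood at 138, 148 and 164 with Apatinib, at 182, 165 and 122 with Telatinib, at 225, 140 and 188 with Vandetanib and at 209, 128 and 154 with Vatalanib. All 12 drug values lay inside the DMSO range. Flt1 was read at 11, 18 and 18 with Apatinib, below the 6 DMSO samples (21 to 64), but the difference of -0.82 on the log2 scale did not pass the test (SE 0.39, adjusted p = 0.380, limma). Csf1r, at 24416 to 25418 with DMSO, stood at 27946, 26513 and 26101 with Vatalanib, above all 6 DMSO samples, without a call. Ripk2 was at 1170, 896 and 1163 with Vandetanib, within the DMSO range of 820 to 2189. Of 10 VEGF ligands and receptors in the table, 6 were expressed highly enough to be tested, as were 6 of 11 other designated or bound kinases, and none of the 12 was called with any of the 4 drugs against DMSO or against the other CKIs.

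**Figure D1:**
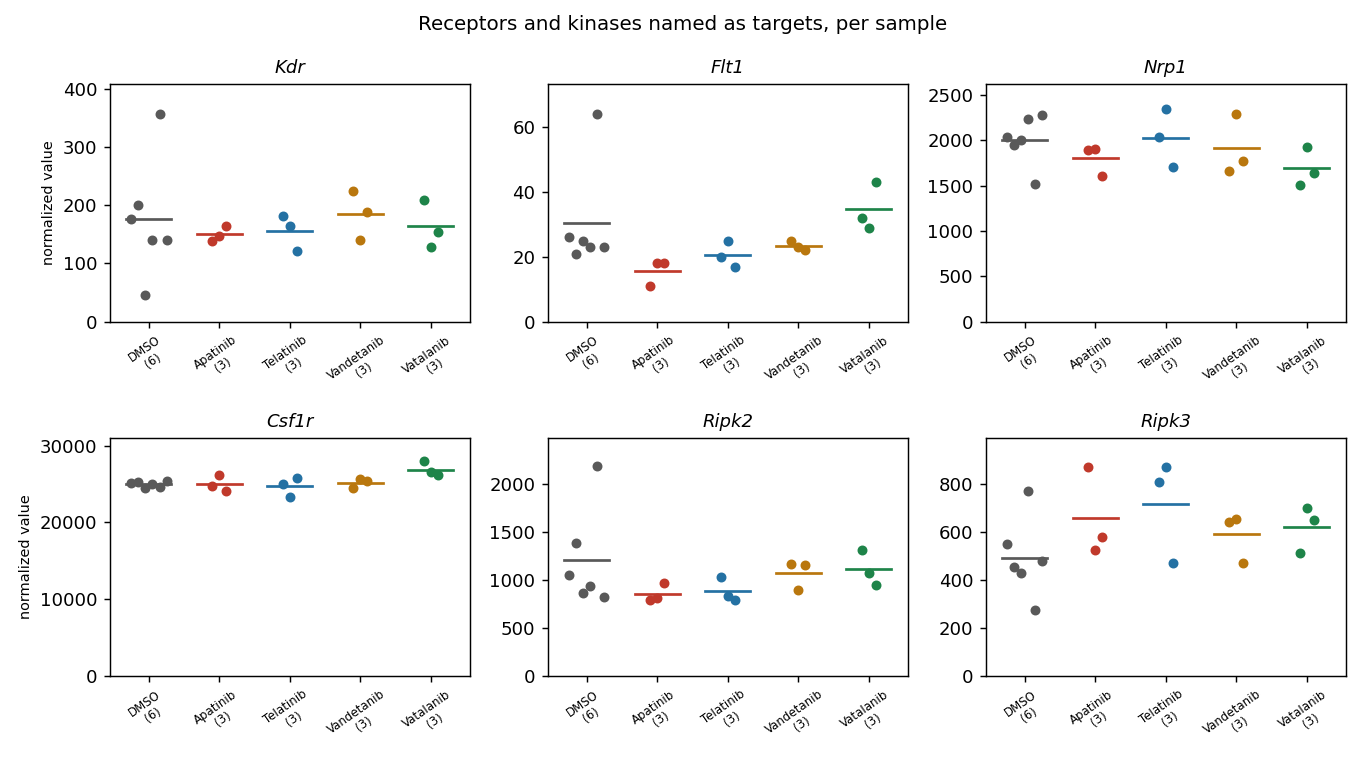
Normalized values of Kdr, Flt1, Nrp1, Csf1r, Ripk2 and Ripk3 (y axis, from 0) in the 6 DMSO samples and the 3 samples of each drug, each point 1 sample and each line the group mean. Kdr with each drug lay inside the DMSO range of 46 to 356, and the 3 Vatalanib values of Csf1r (26101 to 27946) lay above DMSO.

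To ask which genes each drug changed, every drug was compared with DMSO across 12714 expressed genes, a gene with an adjusted p under 0.05 being called a differentially expressed gene (DEG). Apatinib gave 71 DEGs, 8 higher (0.0629% of the genes tested) and 63 lower (0.496%), together 0.558%. Vatalanib gave 12, of which 4 were higher (0.0315%) and 8 lower (0.0629%), together 0.0944%. Telatinib and Vandetanib gave none (0% each) with limma. At an unadjusted p under 0.05 there were 1850 genes (14.6%) with Telatinib and 417 (3.28%) with Vandetanib, and the lowest adjusted p was 0.105 and 0.0755. The other 54 CKIs gave a median of 26 DEGs and up to 3863, 15 of them gave none, and Lenvatinib, also a VEGF receptor inhibitor, gave 1548. Since the comparisons with DMSO share the same 6 samples, each drug was also set against the mean of the other 54 CKIs. Vatalanib then had 62 DEGs, 21 higher (0.165%) and 41 lower (0.322%), together 0.488%, and Apatinib had 11, 1 higher (0.00787%) and 10 lower (0.0787%), together 0.0865%. Telatinib and Vandetanib again had none, with 459 genes (3.61%) and 483 genes (3.80%) at an unadjusted p under 0.05.

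The call numbers rested on few samples. Without Apatinib replicate 1 the Apatinib count against DMSO was 10, without replicate 2 it was 34 and without replicate 3 it was 11; without DMSO set 2 replicate 1 it was 112 and without DMSO set 2 replicate 2 it was 12. Without Vatalanib replicate 1 there was no DEG with Vatalanib against either reference. Without Vatalanib replicate 2 or 3 there were 6 or 4 against DMSO, and 22 or 27 against the other CKIs. Against the other CKIs Apatinib had 1 DEG without its replicate 2 or 3. For Vatalanib against DMSO, leaving out DMSO set 1 replicate 3 left 5 and DMSO set 2 replicate 2 left 7. Same-numbered Apatinib and DMSO samples deviated together, and when that number entered the fit as a replicate block Apatinib had 266 DEGs against DMSO, 69 higher and 197 lower, and 89 against the other CKIs, 6 higher and 83 lower.

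Against DMSO, Apatinib lowered 6 genes of the sterol pathway and raised a cholesterol exporter. In the list of 30 tested sterol and fatty acid synthesis genes, 6 fell with Apatinib and none rose, with a median log2 difference of -0.09 against 0.03 over all genes tested; with the block 8 fell. With Vatalanib 4 fell and none rose, with a median of -0.17 against 0.04. None was called with Telatinib (median 0.02 against 0.13) or Vandetanib (-0.02 against 0.08). The 4 that fell with both Apatinib and Vatalanib were Cyp51, Hsd17b7, Msmo1 and Sqle, all enzymes of the stretch of the pathway that makes squalene into cholesterol. Apatinib also lowered Insig1, whose protein holds the sterol-sensing complex in the endoplasmic reticulum, and Idi1, an enzyme of isoprenoid synthesis. The transcription factor SREBP2 drives this pathway when cells are short of sterol. The list was drawn up with earlier results of these data known, and its direction is not independent evidence.

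Promoter sequences of the 3 genes that fell with both drugs and have a RefSeq entry are shown because these genes moved side by side with 2 of the drugs. The 250 bases before each start site are given 5′ to 3′ on the gene's strand (GRCm38.p6), for Cyp51 from chr5:4104698-4104947, for Hsd17b7 from chr1:169969206-169969455 and for Msmo1 from chr8:64733579-64733828, all on the minus strand. Capitals mark CCAAT, on either strand, and TCACCTCA, a sterol element form that was looked for after the sequences had been read.
Cyp51: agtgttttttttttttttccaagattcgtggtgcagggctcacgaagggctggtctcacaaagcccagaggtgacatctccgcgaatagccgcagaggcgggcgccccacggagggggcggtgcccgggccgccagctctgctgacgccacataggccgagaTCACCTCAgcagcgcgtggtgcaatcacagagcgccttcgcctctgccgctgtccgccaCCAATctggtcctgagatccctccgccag
Hsd17b7: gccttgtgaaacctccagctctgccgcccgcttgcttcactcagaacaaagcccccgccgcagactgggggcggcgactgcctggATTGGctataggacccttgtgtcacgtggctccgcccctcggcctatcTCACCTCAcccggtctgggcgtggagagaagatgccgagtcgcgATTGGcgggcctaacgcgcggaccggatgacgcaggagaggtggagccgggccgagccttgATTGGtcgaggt
Msmo1: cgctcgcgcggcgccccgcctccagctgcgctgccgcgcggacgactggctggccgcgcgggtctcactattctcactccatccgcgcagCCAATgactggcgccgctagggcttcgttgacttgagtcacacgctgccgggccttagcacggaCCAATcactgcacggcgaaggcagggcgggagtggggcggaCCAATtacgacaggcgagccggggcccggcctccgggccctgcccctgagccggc
Of the 6 sterol genes called with Apatinib or Vatalanib, 5 had a promoter entry, Sqle having none. CCAAT, the NF-Y box that often lies beside sterol elements, was present in 5 of 5, in Msmo1 at 160, 96 and 55 bases before the start site, against 33.8% of 32851 mouse promoters of the same length. TCACCTCA was present in Cyp51 at 88 and in Hsd17b7 at 117 bases before the start site, against 0.947% of all promoters. The sterol regulatory element TCACNCCAC, searched on both strands, was in none of the 5 and in 1.05% of all promoters.

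Cyp51, which encodes lanosterol 14-alpha-demethylase (chr5:4080674-4104697, mm10, minus strand), had values of 999 to 1280 with a median of 1224.5 in the 6 DMSO samples. It stood at 725, 696 and 767 with Apatinib, at 679, 841 and 792 with Vatalanib, at 816, 1023 and 996 with Telatinib and at 981, 952 and 1118 with Vandetanib. The Apatinib and Vatalanib samples all lay below the 6 DMSO samples, as did 226 genes (1.78%) with Apatinib and 165 (1.30%) with Vatalanib, while the other 2 drugs overlapped DMSO. Cyp51 fell by 0.71 with Apatinib (SE 0.12, adjusted p = 8.15e-05) and by 0.64 with Vatalanib (SE 0.12, adjusted p = 0.00230) on the log2 scale. For Telatinib the difference was -0.34 (95% CI -0.58 to -0.11, adjusted p = 0.226) and for Vandetanib -0.24 (adjusted p = 0.980). A lower Cyp51 was common in the series, 53 of the 54 other CKIs having a mean below DMSO, and against those CKIs the difference was -0.26 with Apatinib (adjusted p = 0.443) and -0.19 with Vatalanib (adjusted p = 0.504).

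Hsd17b7, which encodes a 3-keto-reductase of sterol synthesis (chr1:169949537-169969205, minus strand), was lower with Apatinib and Vatalanib than with DMSO and than the mean of the other CKIs. It had values of 138 to 235 with a median of 169.5 with DMSO, of 117, 87 and 97 with Apatinib and of 87, 98 and 111 with Vatalanib. Telatinib, at 177, 202 and 194, and Vandetanib, at 178, 189 and 203, fell inside the DMSO range. Only the Apatinib and Vatalanib samples lay below it. Hsd17b7 fell 1.77-fold with Apatinib (log2 difference -0.83, SE 0.15, adjusted p = 0.000177) and 1.80-fold with Vatalanib (-0.85, SE 0.15, adjusted p = 0.000562). With Telatinib the difference was 0.10 (95% CI -0.18 to 0.39) and with Vandetanib 0.10 (95% CI -0.19 to 0.38). Against the other 54 CKIs, whose means ran from 51 to 216 with a median of 169.5, it was lower by -0.63 with Apatinib (adjusted p = 0.00292) and by -0.65 with Vatalanib (adjusted p = 0.000727), ranking 7th and 6th lowest of 58 CKIs. With 1 drug sample left out, the call against the other CKIs held in 1 of 3 fits with Apatinib (adjusted p up to 0.240 without replicate 2) and in 2 of 3 with Vatalanib (0.307 without replicate 1).

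Msmo1, a sterol C4-methyl oxidase gene, stood at 989, 810 and 910 with Apatinib and at 766, 928 and 957 with Vatalanib, against 944 to 1429 with DMSO. The 3 Apatinib and 3 Vatalanib values overlapped only the lowest of the 6 DMSO samples, and the falls of 0.50 (adjusted p = 0.0101) and 0.53 (adjusted p = 0.0105) passed the test. Telatinib gave 1237, 1469 and 1074 and Vandetanib 1249, 1247 and 1110, with differences of -0.03 (95% CI -0.24 to 0.19) and -0.08 (95% CI -0.30 to 0.13). Sqle, encoding squalene epoxidase, stood at 442, 711 and 635 with Apatinib and at 462, 604 and 602 with Vatalanib, against 651 to 1232 with DMSO. It fell by 0.73 (adjusted p = 0.0410) and by 0.82 (adjusted p = 0.0448). Apatinib replicate 2 lay within the DMSO range for Sqle, and all Vatalanib samples lay below it. Insig1 and Idi1 fell with Apatinib by 0.79 (adjusted p = 0.0176) and 0.68 (adjusted p = 0.0323). With Vatalanib they were at -0.66 (adjusted p = 0.125) and -0.60 (adjusted p = 0.180), which did not pass. With the replicate block both passed with Vatalanib (adjusted p = 0.0201 and 0.0472). Leaving out Vatalanib replicate 1 ended the calls of Cyp51, Hsd17b7 and Msmo1 with Vatalanib, while those of Cyp51 and Hsd17b7 with Apatinib held in 9 of 9 fits that each left out 1 sample. The other Apatinib calls were less firm, Msmo1 passing in 7 of 9 such fits (adjusted p up to 0.109 without Apatinib replicate 2), Insig1 in 6 (0.287 without replicate 3), Idi1 in 3 (0.242 without replicate 2) and Sqle in 3 (0.605 without replicate 1). Sqle with Vatalanib passed in 2 of 9 (0.556 without Vatalanib replicate 1). Of the other 54 CKIs, 52 were below DMSO for Insig1, 50 for Sqle, 41 for Msmo1 and 35 for Idi1. Against those CKIs none of these genes was called without the block. The adjusted p was 0.137 (Idi1) to 0.534 (Sqle) with Apatinib and 0.0660 (Msmo1) to 0.468 (Insig1) with Vatalanib. With the block Sqle passed with both drugs (0.0362 and 0.00298), Idi1 with Apatinib (0.0396) and Msmo1 with Vatalanib (0.0172).

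**Figure D2:**
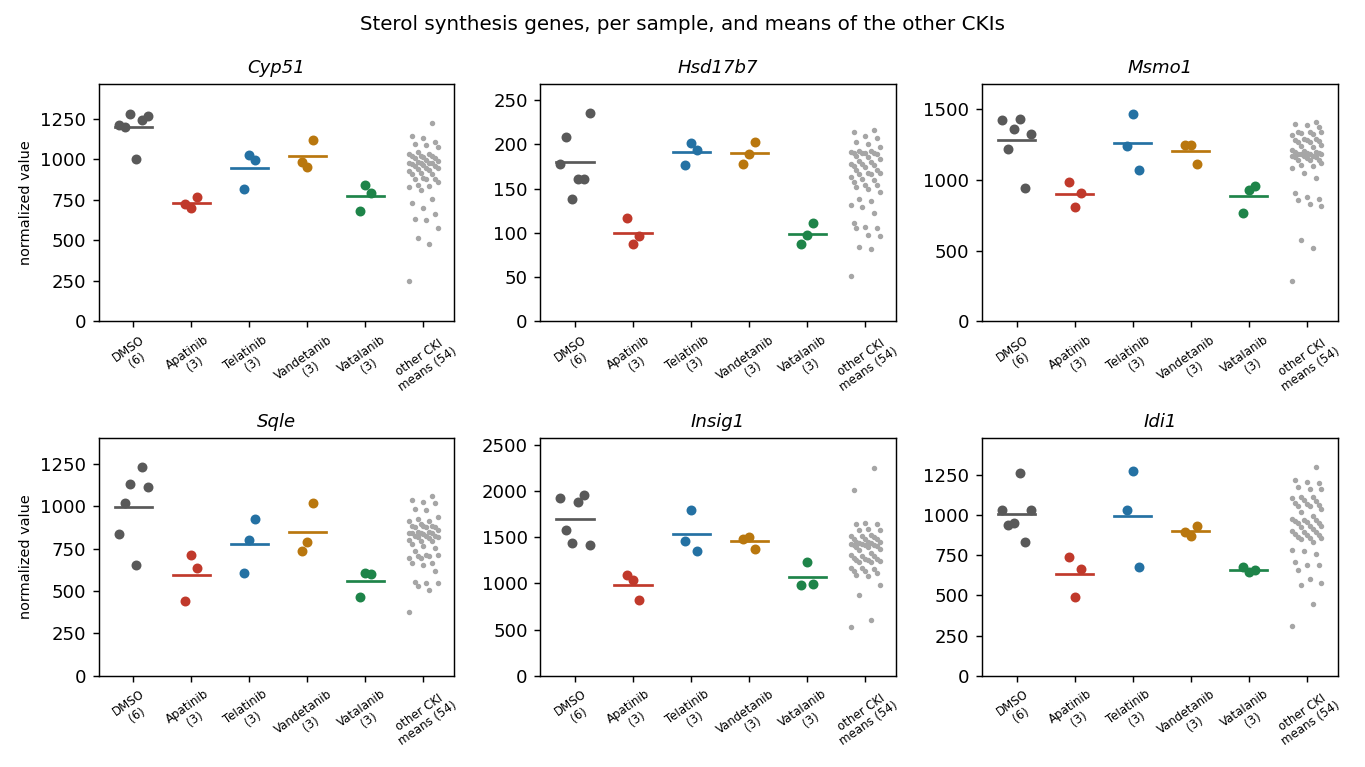
Normalized values (y axis, from 0) of the 6 sterol pathway genes that fell with Apatinib, each coloured point 1 sample, each line the group mean and each small grey point the mean of 1 of the other 54 CKIs. Hsd17b7 stood at 87 to 117 with Apatinib and Vatalanib and at 138 to 235 with DMSO, Telatinib and Vandetanib.

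Abcg1, whose protein exports cholesterol to high-density lipoprotein and which is a classical target of the liver X receptors (LXR), rose with Apatinib (chr17:31057694-31117984, plus strand). Its value was 876 to 1888 with a median of 1110.5 with DMSO and 4453, 2540 and 3088 with Apatinib. Telatinib gave 1831, 1929 and 1181, Vandetanib 1569, 1308 and 984, and Vatalanib 1807, 1903 and 1602. All 3 Apatinib samples exceeded every DMSO sample, as was so for 405 genes (3.19%), and every sample of the other 3 drugs. Against DMSO it was 2.72-fold higher with Apatinib (log2 difference 1.45, SE 0.26, adjusted p = 0.000282), and against the other 54 CKIs 2.25-fold higher (1.17, SE 0.22, adjusted p = 0.00292), the second highest of 58 CKI means. Without Apatinib replicate 1 the adjusted p was 0.0808 against DMSO and 0.178 against the other CKIs, where the call held in 1 of 3 fits without 1 drug sample. With Vatalanib the difference from DMSO was 0.56 (95% CI 0.04 to 1.08, adjusted p = 0.524), with Telatinib 0.42 (adjusted p = 0.430) and with Vandetanib 0.08 (adjusted p = 0.991).

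Abca1, the exporter of cholesterol to apolipoprotein A-I and another LXR target, stood at 1931, 1645 and 1921 with Apatinib, above the DMSO range of 338 to 1497. Its log2 difference from DMSO was the highest of the 58 CKIs, but at 1.01 it was not called (SE 0.30, adjusted p = 0.0892). With the replicate block it was (adjusted p = 0.00594). Of 11 genes of cholesterol efflux and LXR response, Abcg1 was called with Apatinib, 2 with the block, and none with the other 3 drugs, the medians being 0.08 for Apatinib, 0.08 for Telatinib, 0.08 for Vandetanib and 0.24 for Vatalanib.

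Among the other genes that moved with Apatinib, the largest fall was that of Ogfr, which encodes the opioid growth factor receptor (chr2:180589407-180595837, plus strand). It was at 474 to 1182 with a median of 923 with DMSO and at 207, 182 and 153 with Apatinib. With Vatalanib it stood at 278, 491 and 263, with Telatinib at 1033, 1325 and 668 and with Vandetanib at 1066, 1105 and 1156. The Apatinib samples lay far below DMSO and 1 Vatalanib sample reached into the DMSO range. Ogfr fell 4.55-fold with Apatinib (log2 difference -2.19, SE 0.38, adjusted p = 0.000150), and held in 9 of 9 fits without 1 sample. With Vatalanib the difference was -1.31 (95% CI -2.06 to -0.56, adjusted p = 0.177, and 0.0341 with the replicate block). With Vandetanib it was 0.43 from DMSO (adjusted p = 0.980) and 1.45 from the other CKIs (adjusted p = 0.112, and 0.016 with the block), the second highest of 58 CKI means. Ogfr was below DMSO with 46 of the other 54 CKIs.

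Other falls with Apatinib included those of Dhx16, an RNA helicase of the spliceosome, by 1.77 (adjusted p = 0.00962), the zinc finger gene Zfp282 from a mean of 136 to 49.7 (adjusted p = 0.0176), Def6, a guanine nucleotide exchange factor gene, by 1.41 (adjusted p = 0.0331) and the chaperone gene Hspa4 by 1.39 (adjusted p = 0.0455). Mxd1, a partner of MAX that opposes MYC, was at 1140, 1102 and 1011 with Apatinib and at 1752 to 3103 with DMSO. It fell 1.97-fold (log2 difference -0.98, SE 0.16, adjusted p = 6.43e-05). Hif1a, the oxygen-regulated subunit of hypoxia-inducible factor, fell by 0.82 (adjusted p = 0.0326), and Tfe3, a transcription factor of lysosomal genes, by 0.39 (adjusted p = 0.0176). They were the 1 called gene among 28 of hypoxia and glycolysis and among 33 of lysosome and autophagy. Hif1a had 1 high DMSO sample, set 2 replicate 2 at 2501. Many of the other 54 CKIs were also below DMSO, 51 for Dhx16, 49 each for Zfp282, Mxd1 and Tfe3, 48 for Hif1a, 45 for Hspa4 and 35 for Def6. Mxd1 was called in 9 of 9 fits without 1 sample, Dhx16, Zfp282 and Tfe3 in 6, Def6 in 4 and Hspa4 and Hif1a in 3, the highest adjusted p being 0.119 for Dhx16, 0.318 for Tfe3 and 0.317 for Hif1a without Apatinib replicate 1 and 0.312 for Zfp282, 0.450 for Def6 and 0.341 for Hspa4 without Apatinib replicate 3.

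Besides Abcg1, 7 genes rose with Apatinib. Fosb, an immediate-early AP-1 subunit, rose 3.40-fold (log2 difference 1.77, SE 0.44, adjusted p = 0.0285). Tmem37, which encodes a calcium channel gamma-like subunit, rose by 0.53 (adjusted p = 0.0201) and had the highest mean of the 58 CKIs. Dapp1, a phosphoinositide-binding adaptor of lymphocytes and macrophages, rose by 0.44 (adjusted p = 0.0291). Gm10275 at 0.41 (adjusted p = 0.0292) and Rps3a3 at 0.33 (adjusted p = 0.0176) are near-identical copies of a ribosomal protein gene, so that their reads cannot be assigned with certainty. In fits without 1 sample Fosb passed in 4 of 9 (adjusted p up to 0.181 without Apatinib replicate 1), Tmem37 in 6 (0.236 without replicate 1) and Dapp1 in 4 (0.290 without replicate 3). Many of the other 54 CKIs were also above DMSO, 54 for Rps3a3, 52 for Gm10275, 51 for Fosb, 49 for Tmem37, 47 for Dapp1 and 45 for Abcg1. Against the other 54 CKIs, Abcg1 was the only gene higher with Apatinib. The genes lower included Plau by 1.09 (adjusted p = 0.0334), the kinase gene Rps6ka2 by 0.77 (adjusted p = 0.0362), the ubiquitin ligase gene Nedd4l by 0.75 (adjusted p = 0.0362), Pdpn, the podoplanin gene, by 0.74 (adjusted p = 0.00292) and Arhgap19 by 0.70 (adjusted p = 0.0334). Rps6ka2, Nedd4l and Arhgap19 had their lowest mean of all 58 CKIs with Apatinib. Of 3 fits without 1 Apatinib sample, Pdpn passed in 1 (adjusted p up to 0.23 without replicate 2). Plau, Rps6ka2, Nedd4l and Arhgap19 passed in 0. Their adjusted p reached 0.565, 0.92, 0.937 and 0.837, each without replicate 3.

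**Figure D3:**
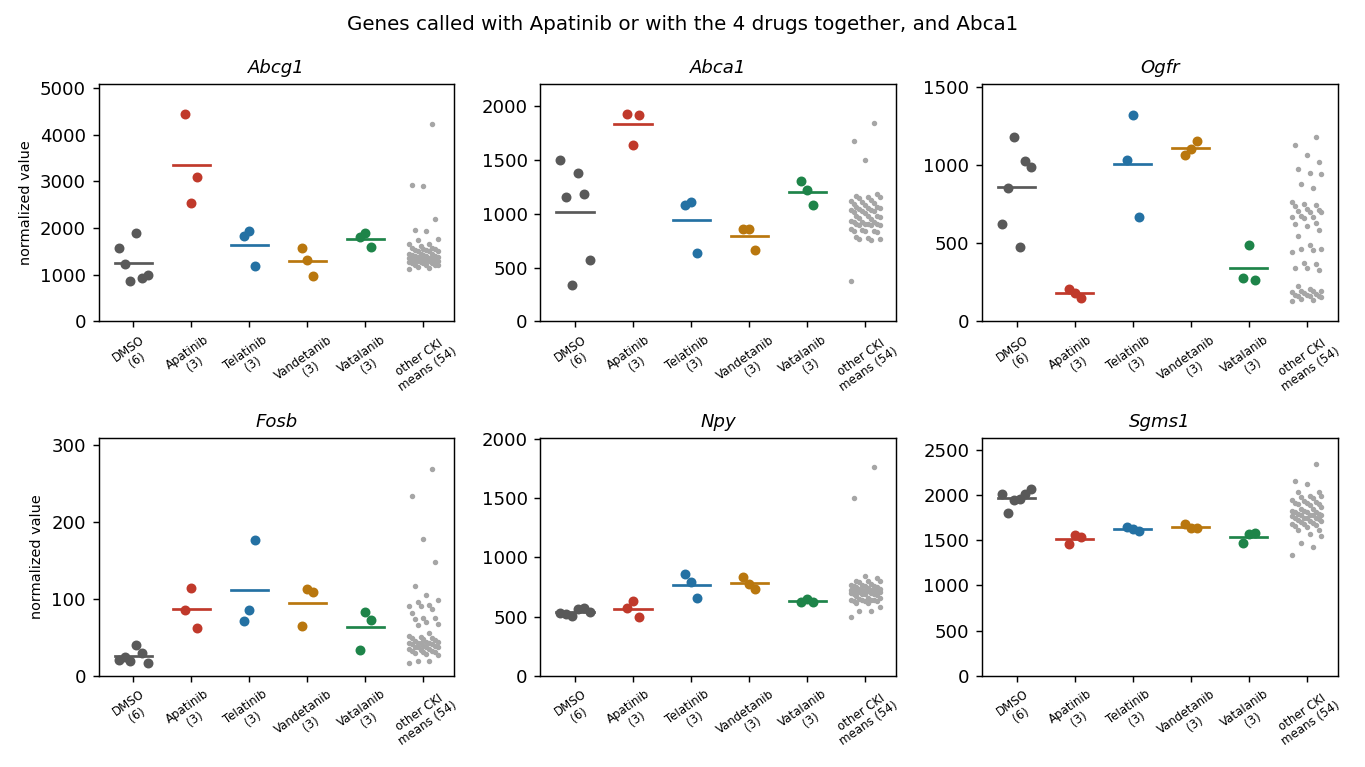
Normalized values (y axis, from 0) of Abcg1, Abca1, Ogfr, Fosb, Npy and Sgms1, each coloured point 1 sample, each line the group mean and each small grey point the mean of 1 of the other 54 CKIs. Ogfr was at 153 to 207 with Apatinib and at 474 to 1182 with DMSO, and all 12 drug values of Sgms1 lay below DMSO.

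Vatalanib raised 3 histone H2B genes and an MHC class Ib gene against DMSO, beside the sterol genes that fell, and every one of its calls was lost without Vatalanib replicate 1. Fibroblast markers summed to 58 to 201 with Vatalanib and to 19 to 147 with DMSO, with Lum at 0 in both groups and the 2 tested, Col1a1 and Col1a2, at a median log2 difference of 1.19 from DMSO and 1.35 from the other CKIs without a call; their part in the Vatalanib results was not tested. H2bc22 was at 145, 177 and 170 with Vatalanib against 69 to 106 with DMSO. It rose 1.87-fold (log2 difference 0.90, SE 0.19, adjusted p = 0.0126), and H2bc13 and H2bc23 rose by 0.87 (adjusted p = 0.0152) and 0.77 (adjusted p = 0.0242). These are close paralogs that can share reads, and H2bc22 was above DMSO with 52 of the other 54 CKIs. H2-Q6, a gene of the nonclassical Qa-2 cluster, was at 531, 435 and 415 against 254 to 338 with DMSO and rose 1.55-fold (0.63, SE 0.14, adjusted p = 0.0351). Its 3 values lay above all DMSO samples, as did 317 genes (2.49%) with Vatalanib. Gramd3, which encodes a GRAM domain protein, fell by 0.84 (adjusted p = 0.0439), and by 0.82 with Apatinib (adjusted p = 0.0244). The predicted gene Gm7368 fell by 0.71 with Vatalanib (adjusted p = 0.00918), the lowest log2 difference from DMSO of the 58 CKIs. It was below DMSO with 51 of the other 54 CKIs.

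The other 2 genes that fell with Vatalanib were expressed below the mean of 50 set for naming and are named because of their values. Bcl2, the anti-apoptotic founder of its family, had values of 16 to 35 with DMSO and of 2, 22 and 14 with Vatalanib. It fell by 1.48 on the log2 scale (SE 0.29, adjusted p = 0.00476), the lowest of 58 CKI means. That value rested on Vatalanib replicate 1 at 2, without which the difference was -0.61 (adjusted p = 0.828). Utp14b, a retrogene for a nucleolar protein, fell by 1.63 (adjusted p = 0.0351).

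Set against the other 54 CKIs, the largest differences with Vatalanib were those of Parp11 and Ccnd2 upwards and of Plau and Sema6d downwards, among genes with a mean of at least 50. Parp11, an interferon-inducible ADP-ribosyltransferase gene, was at 333, 174 and 176, against means of 46 to 169 with the other CKIs and single values of 82 to 158 with DMSO. It was 2.17-fold higher than the other CKIs (log2 difference 1.12, SE 0.29, adjusted p = 0.0360). Ccnd2, encoding cyclin D2, stood at 1833, 1157 and 1232 against means of 292 to 1357, 1.85-fold higher (0.89, SE 0.20, adjusted p = 0.0129). Parp11 and Ccnd2, with 1600014C10Rik (0.73, adjusted p = 0.000496), the antiviral helicase gene Mov10 (0.66, adjusted p = 0.0499) and Pml of the nuclear bodies (0.65, adjusted p = 0.0280), had their highest mean of all 58 CKIs with Vatalanib. H2-Q7 was higher by 0.63 (adjusted p = 0.00853) and H2-Q6 by 0.60 (adjusted p = 0.00301), and these neighbours share reads. Replicate 1 was the highest Vatalanib sample for Parp11, Ccnd2 and H2-Q6. Of 3 fits without 1 Vatalanib sample, Parp11, Mov10 and Pml passed in 0, Ccnd2 and H2-Q7 in 1 and 1600014C10Rik and H2-Q6 in 2.

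Plau, the urokinase plasminogen activator gene (chr14:20836662-20843388, plus strand), stood at 57, 63 and 78 with Vatalanib, against 86 to 152 with DMSO and means of 57 to 2860 with the other CKIs. It was 2.72-fold lower than the mean of the other CKIs (log2 difference -1.44, SE 0.24, adjusted p = 0.000111), but the difference from DMSO, -0.70, was not called (adjusted p = 0.462), as 45 of the other 54 CKIs had Plau above DMSO. Mmp12, the macrophage elastase gene, stood at 334, 363 and 400 with Vatalanib and at 318 to 594 with DMSO, and was 2.06-fold lower than the other CKIs (-1.04, SE 0.26, adjusted p = 0.0270), 50 of which were above DMSO. The Vatalanib values of Mmp12 thus stayed within the DMSO range, and those of Plau lay below it. Of 3 fits without 1 Vatalanib sample, Plau passed against the other CKIs in 2 and Mmp12 in 0. The adjusted p reached 0.0617 for Plau and 0.862 for Mmp12, both without replicate 1.

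Sema6d, a semaphorin gene, was lower than with the other CKIs by 1.15 (adjusted p = 0.0163), the sorting nexin gene Snx30 by 1.00 (adjusted p = 0.00853), the lipoprotein receptor-related gene Lrp12 by 0.92 (adjusted p = 0.000727) and Cln8, which serves the export of lysosomal enzymes from the endoplasmic reticulum, by 0.85 (adjusted p = 0.00853). Lrp12 stood at 160, 178 and 154 with Vatalanib, below its 6 DMSO samples at 193 to 327. Of 30 cell cycle genes, 30 were below the other CKIs with Vatalanib, at a median of -0.21 against -0.04 over all genes, and 1 was called, the E2F repressor gene E2f8, at -0.65 (adjusted p = 0.00853). Against DMSO the median of these genes was -0.12 and 24 were lower, none of them called. Over all 12714 genes tested, 5179 were above the other CKIs with Vatalanib and 7133 above DMSO. Further calls in the lists were Mdm2, the ubiquitin ligase that restrains p53, at -0.49 (adjusted p = 0.0177), Nfkbie, an inhibitor of NF-kB, at 0.35 (adjusted p = 0.0186), the Toll-like receptor adaptor gene Myd88 at 0.42 (adjusted p = 0.0202) and the flagellin receptor gene Tlr5 at -1.55 (adjusted p = 0.0123), which had a mean of 6.33 with Vatalanib and 13.9 with the other CKIs. Of 3 fits without 1 Vatalanib sample, Snx30 and Lrp12 passed in 2, Sema6d, Cln8 and E2f8 in 1 and Mdm2 in 0. After rescaling the samples by the median of ratios, the 62 calls of Vatalanib against the other CKIs, 21 higher and 41 lower, became 36 higher and 34 lower.

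**Figure D4:**
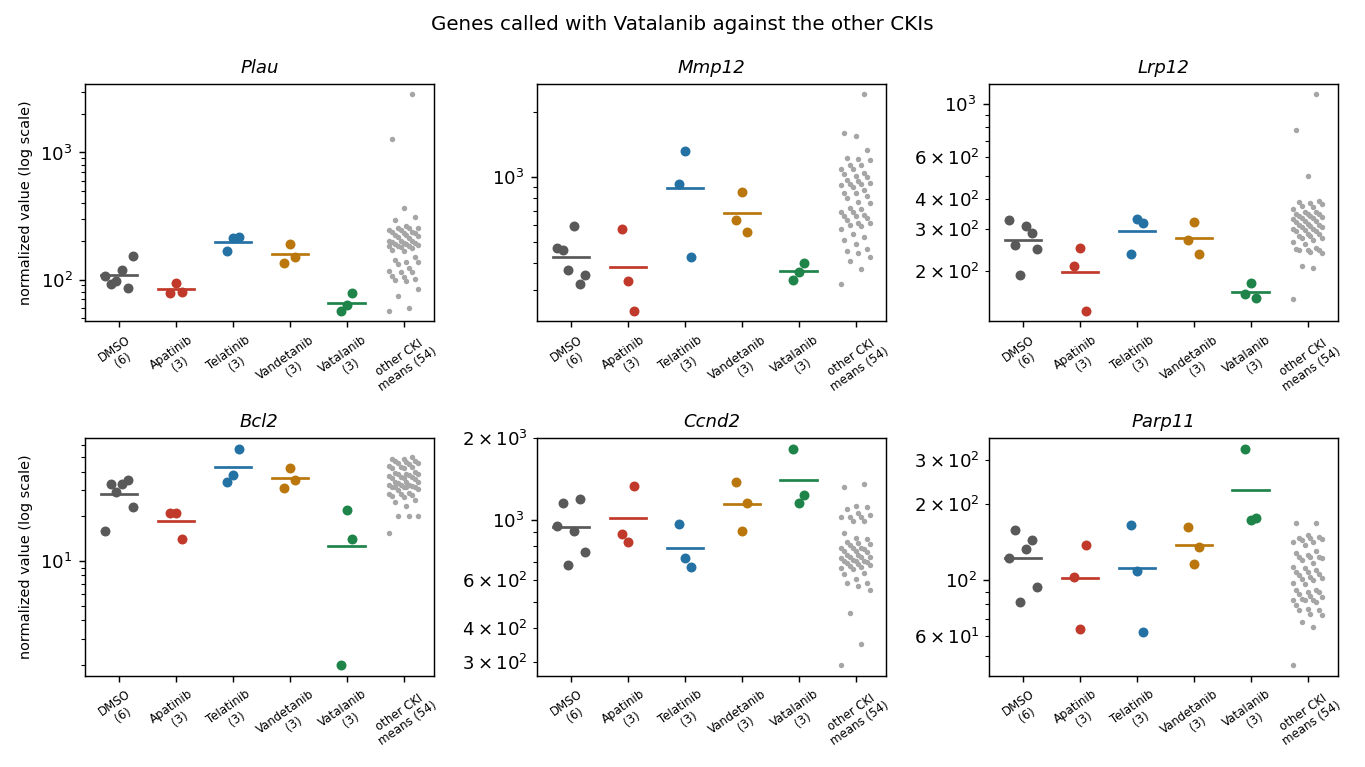
Normalized values, on a log axis, of 6 genes called with Vatalanib against the other CKIs, each coloured point 1 sample, each line the group mean and each small grey point the mean of 1 of the other 54 CKIs. Plau was at 57 to 78 with Vatalanib and at 86 to 152 with DMSO, and the low Bcl2 sample of Vatalanib is replicate 1 at 2.

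For Telatinib and Vandetanib no gene passed the test without the replicate block, and the genes with the smallest p are given as values. The highest were Fosb at 71, 85 and 176 with Telatinib and at 65, 112 and 108 with Vandetanib, and Npy, the neuropeptide Y gene, at 859, 792 and 658 with Telatinib and at 833, 778 and 733 with Vandetanib. The DMSO samples stood at 17 to 40 for Fosb and at 502 to 569 for Npy. Both genes were above all 6 DMSO samples in all 6 samples of the 2 drugs, as were 559 genes (4.40%) with Telatinib and 225 (1.77%) with Vandetanib. The log2 differences were 2.04 (SE 0.44, adjusted p = 0.105) and 0.51 (SE 0.11, adjusted p = 0.105) with Telatinib, and 1.89 (adjusted p = 0.186) and 0.54 (adjusted p = 0.0755) with Vandetanib. With the replicate block both genes were called, with an adjusted p of 0.00457 for Fosb and 0.0246 for Npy with Telatinib, and 0.0226 for each with Vandetanib. Fosb was above DMSO with 51 of the other 54 CKIs and Npy with 53.

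Further genes at the top of the Telatinib comparison were Lage3 and Zbtb9. Lage3, encoding a subunit of the tRNA-modifying KEOPS complex, was at 283, 270 and 265 against 182 to 197 with DMSO (0.53, adjusted p = 0.132), the highest mean of 58 CKIs. Zbtb9 was at 82, 80 and 132 against 126 to 267 (-0.78, adjusted p = 0.202), the lowest log2 difference from DMSO of the 58. Rnf185, an ubiquitin ligase gene, was at -0.34 and Ifngr1, the interferon gamma receptor chain gene, at -0.24 (adjusted p = 0.211 for both). Telatinib also had a raised centre, the median log2 difference over all genes being 0.13, which went to 0.01 after rescaling by the median of ratios. Mitochondrially encoded genes were higher in 13 of 13 with a median of 0.84, and neutrophil markers in 8 of 8 with a median of 0.66, without a call. Camp, a granule gene of neutrophils, was at 70, 54 and 28 against 7 to 35.

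With Vandetanib, Pdpn followed Npy and Fosb, at 388, 262 and 362 against 170 to 261 with DMSO (0.73, adjusted p = 0.186). The lowest were the mitotic gene Ckap2l (-0.27), Cercam (-0.54) and Tsc22d1 (-0.28), each with an adjusted p of 0.980. The chemokine genes Ccl2, at 11581, 10079 and 9552 against 6977 to 8431, and Ccl7, at 8607, 8571 and 6669 against 3777 to 7874, were read higher by 0.43 and 0.72 (adjusted p = 0.980 for both). All 3 Ccl2 samples stood above DMSO and 1 Ccl7 sample lay within the DMSO range. Against the other CKIs, Vandetanib had Ogfr at 1.45, Fos at 0.53 (adjusted p = 0.340) and Sertad2 at 0.35 (adjusted p = 0.441) as the highest by p, and Telatinib had Ogfr at 1.26, Was, the Wiskott-Aldrich gene, at 0.90 and the potassium channel gene Kcnk6 at 0.60 (adjusted p = 1.00 for all 3).

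The mean of the 4 drugs against DMSO gave 21 DEGs, 18 higher (0.142%) and 3 lower (0.0236%), together 0.165%. Fosb rose 3.33-fold (log2 difference 1.74, SE 0.31, adjusted p = 0.000823) and held in 18 of 18 fits without 1 sample. The 3 genes that fell were Cyp51 by 0.48 (SE 0.08, adjusted p = 0.000806), Mxd1 by 0.46 (adjusted p = 0.0436) and Sgms1 by 0.31 (SE 0.07, adjusted p = 0.0198). Sgms1, which encodes the sphingomyelin synthase of the Golgi (chr19:32122727-32388512, minus strand), stood at 1460, 1562 and 1532 with Apatinib, at 1653, 1622 and 1606 with Telatinib, at 1677, 1642 and 1640 with Vandetanib and at 1466, 1569 and 1586 with Vatalanib. All 12 lay below the 6 DMSO samples at 1804 to 2074, which was so for 3 genes in all (0.0236%), and the call held in 16 of 18 fits without 1 sample (adjusted p up to 0.103 without DMSO set 2 replicate 3). Sgms1 was also lower than with the other 54 CKIs, by 0.18 (adjusted p = 0.0232), although 45 of those CKIs had it below DMSO.

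The genes that rose with the 4 drugs together included Polr2g, an RNA polymerase II subunit gene, by 0.59 (adjusted p = 0.0418), H2bc22 by 0.58 (adjusted p = 0.0418), the chaperone-like gene Uxt by 0.48 (adjusted p = 0.0418), the chromatin remodeller gene Chd8 by 0.43 (adjusted p = 0.0436), the predicted gene Gm7413 by 0.42 (adjusted p = 0.0335), Npy by 0.34 (adjusted p = 0.0418) and Rpl28 by 0.31 (adjusted p = 0.0110). In fits without 1 sample Rpl28 passed in 18 of 18, Gm7413 in 12, Polr2g, H2bc22 and Uxt in 7, Npy in 6 and Chd8 and Mxd1 in 5, with an adjusted p up to 0.305 for Mxd1 without DMSO set 2 replicate 2. Most of the other 54 CKIs were also above DMSO, 54 for Uxt, 53 for Gm7413 and Npy, 52 for Polr2g and H2bc22 and 51 for Chd8. Mxd1 was below DMSO with 49 of them. Ribosomal protein genes leaned up as a group. All 80 tested had a higher mean, at a median of 0.33 against 0.06 over all genes, and 4 of them were called. With Apatinib by itself 2 were called. Over all 12714 genes tested, 7881 were above DMSO with the 4 drugs together. Against the other 54 CKIs the same list had medians of 0.11 with Apatinib, 0.09 with Telatinib, -0.08 with Vandetanib and 0.02 with Vatalanib, with no call, and Rpl28 was above DMSO with 53 of those CKIs. Rescaling by the median of ratios turned the split of 18 higher and 3 lower into 1 higher and 4 lower, with 80 of 80 ribosomal genes still on the higher side.

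That count depended on which samples entered. Leaving out 1 DMSO sample gave 75, 7 and 8 without replicates 1, 2 and 3 of set 1 and 190, 4 and 3 without those of set 2. Leaving out 1 drug sample gave 8, 10 and 10 without Apatinib replicates 1, 2 and 3, 10 and 7 without Telatinib replicates 1 and 2, 4 and 6 without Vandetanib replicates 1 and 2, and 7 and 4 without Vatalanib replicates 2 and 3. Leaving out a drug, an alternative chosen after the data were seen, it was 5 without Apatinib, 21 without Telatinib, 112 without Vandetanib and 3 without Vatalanib. Against the other 54 CKIs the 4 drugs together gave 23 DEGs, 10 higher (0.0787%) and 13 lower (0.102%), together 0.181%. This was 14 and 3 without Apatinib replicates 1 and 3, 3 without Telatinib replicate 1, 5, 39 and 11 without Vandetanib replicates 1, 2 and 3 and 4 without Vatalanib replicate 1. By drug it was 9, 173, 20 and 0 without Apatinib, Telatinib, Vandetanib and Vatalanib.

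Irf8, the transcription factor of the monocyte lineage, was higher by 0.54 (adjusted p = 0.0368), with 53 of the other CKIs below DMSO, and the 4 drugs themselves were at -0.46 from DMSO (adjusted p = 0.298). Plau was lower by 0.65 (SE 0.12, adjusted p = 0.00261) in 12 of 12 fits without 1 sample, with a difference from DMSO of 0.09 (adjusted p = 0.859) that averages 0.88 with Telatinib, 0.55 with Vandetanib, -0.34 with Apatinib and -0.70 with Vatalanib. Mmp12 was lower by 0.55 (adjusted p = 0.0368), and these were the 2 calls among 20 genes of tissue remodelling and angiogenesis. Ccnd2 was higher by 0.50 (adjusted p = 0.0132), 1600014C10Rik by 0.35 (adjusted p = 0.00261) and the RIG-I ligase gene Rnf135 by 0.34 (adjusted p = 0.0153). Lrp12 was lower by 0.47 (adjusted p = 0.00246), the amino acid transporter gene Slc38a2 by 0.39 (adjusted p = 0.0153), Mdm2 by 0.28 (adjusted p = 0.0133) and Bcl2 by 0.54 (adjusted p = 0.0232). Without Vatalanib replicate 1 Bcl2 was at -0.32 (adjusted p = 0.419) and was not called. In the 12 fits without 1 drug sample Lrp12 passed in 11, 1600014C10Rik in 10, Ccnd2, Rnf135 and Mdm2 in 8, Slc38a2 and Bcl2 in 7, Irf8 in 4 (adjusted p up to 0.226 without Telatinib replicate 1) and Mmp12 in 3 (0.191 without Apatinib replicate 3).

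To ask whether the macrophage response to LPS differed, lists of LPS-driven genes were counted against DMSO. Of 32 cytokine and chemokine genes none was called with any of the 4 drugs, at medians of -0.16 with Apatinib, 0.23 with Telatinib, 0.27 with Vandetanib and 0.23 with Vatalanib. Of 18 NF-kB feedback genes and 20 genes of NOD and RIPK signalling, the latter holding Ripk2 and Ripk3, none was called either. Of 29 immediate-early genes only Fosb was called, with Apatinib and with the 4 drugs together. Dusp1, the MAPK phosphatase gene, was at -1.32 with Apatinib (adjusted p = 0.107), and with the replicate block it was called (adjusted p = 0.0175).

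Interferon-stimulated genes leaned down with Apatinib and up with Vandetanib and Vatalanib, while with Telatinib they lay near the median of all genes. Of 49 tested, 17 were above DMSO with Apatinib, 30 with Telatinib, 45 with Vandetanib and 45 with Vatalanib, at medians of -0.11, 0.12, 0.31 and 0.45 against medians over all genes of 0.03, 0.13, 0.08 and 0.04. Over all 12714 genes tested, 6960, 8492, 8285 and 7133 were above DMSO with the same drugs. None of the 49 passed the test without the replicate block. Against the other 54 CKIs the medians of the 49 were -0.04, 0.15, 0.32 and 0.49, with 48 of 49 positive for both Vandetanib and Vatalanib and no call. Over all genes tested, 6368 were positive there with Vandetanib and 5179 with Vatalanib. Irf7, the factor that amplifies type I interferon, was at 6101, 5201 and 4857 with Vatalanib against 2329 to 4647 with DMSO, the highest of 58 CKI means (0.59, adjusted p = 0.329). The sensor gene Zbp1 was at 1501, 1031 and 942 against 319 to 967 (0.95, adjusted p = 0.328) and Oasl1 at 11809, 8460 and 8439 against 4255 to 8130 (0.63, adjusted p = 0.279). With the replicate block Oasl1 was called (adjusted p = 0.0314), whereas Zbp1 (0.0523) and Irf7 (0.0810) were not. Replicate 1 was the highest of the 3 Vatalanib samples for Irf7, Zbp1 and Oasl1, and 1 Zbp1 value lay within the DMSO range. After rescaling, the Telatinib median against DMSO was 0.00.

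**Figure D5:**
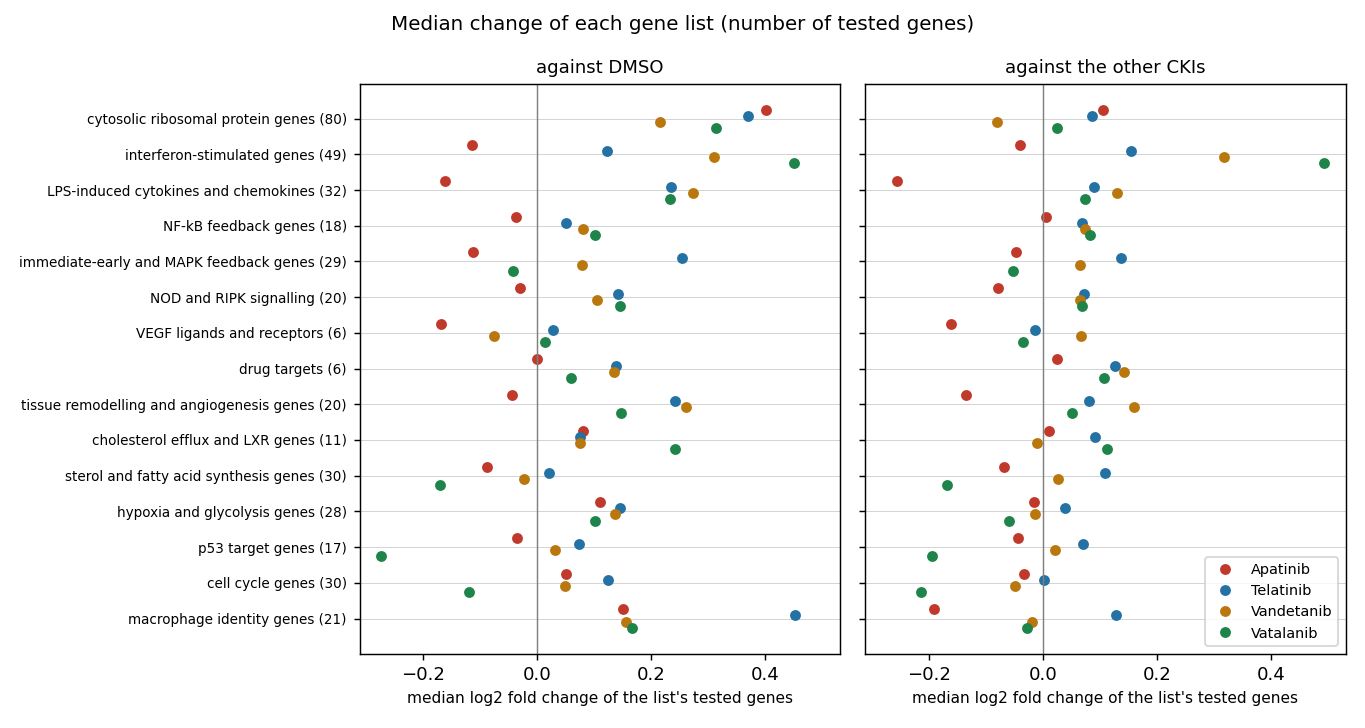
Median log2 difference of the tested genes of each list (x axis) from DMSO on the left and from the other CKIs on the right, each point 1 drug, with the number of tested genes in parentheses. Interferon-stimulated genes ran from -0.11 with Apatinib to 0.45 with Vatalanib against DMSO, and ribosomal protein genes, all above 0 there, had medians of -0.08 to 0.11 against the other CKIs.

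The likeness of the 4 profiles was described by Spearman correlations of log2 differences across 12714 genes, each drug of a pair being set against a different DMSO set. Genes are not independent replicates, and the drugs of a pair share the LPS stimulus and the normalization. The values were 0.323 for Apatinib and Telatinib, 0.202 for Apatinib and Vandetanib, 0.335 for Apatinib and Vatalanib, 0.407 for Telatinib and Vandetanib, 0.277 for Telatinib and Vatalanib and 0.316 for Vandetanib and Vatalanib. The median over all 1653 pairs of CKIs was 0.326. With Lenvatinib the values were 0.366 for Apatinib, 0.669 for Telatinib, 0.458 for Vandetanib and 0.365 for Vatalanib.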

How the data were processed

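Polyadenylated RNA of BMDM was made into SMART-seq2 libraries, a method that does not mark strand. The study's methods speak of paired-end sequencing in one place and of mapping single-end reads in another. Per these methods and the submitters' processing notes, reads were aligned to mm10 with TopHat2 2.1.1, reads in blacklisted regions were removed with bedtools 2.29.2, exonic reads of RefSeq genes were counted with R packages (R 3.6.2), and DESeq2 was used by the authors. The deposited table holds a score per gene and sample, made by the authors by scaling exonic counts to genes of invariant expression and rounding to whole numbers. It is not a raw count, so the depth of a sample is not known and no interval for counting error was given.

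Differences were tested with limma 3.58.1 in R 4.3.3 (trend) on log2(value + 1), with all 59 groups in 1 fit and Benjamini-Hochberg adjustment over the 12714 of 45070 genes with a mean value of at least 10. A fold change on this scale understates changes of low genes. Groups were DMSO (6 samples, 2 sets of 3) and each CKI (3 samples); the mean of the 54 other CKIs was a second reference, whose spread is that between replicates. Genes called DEGs had an adjusted p under 0.05. Genes were named by rule: all VEGF ligands, VEGF receptors and drug targets, for each drug up to 6 DEGs of each direction with the largest log2 difference, a mean of at least 50 and, against DMSO, all 3 samples beyond all 6 DMSO samples, for the 4 drugs together up to 8 with all 4 means on the same side of DMSO, where there was no DEG the 3 genes of each direction with the smallest p, and up to 3 genes of each list with the smallest p. Other called members of a list, genes set side by side between drugs and Bcl2 and Utp14b were named after their values were seen. A few genes that meet the rule are not reported here. The members and lists were chosen with earlier results of these data known.

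The numbers of the samples were checked for pairing by correlating deviations from group means between same-numbered samples of a drug and each DMSO set. For Apatinib 6 of 6 correlations were over 0.1 (0.206 to 0.745). The fit with the replicate block is therefore given beside its results, and beside some genes of the other drugs. The labels give no source for this pairing. The test was checked on simulated data for Apatinib against DMSO with 12714 genes, where it recovered 69.0% of genes changed by 1 and 96.0% of those changed by 2 on the log2 scale, and called 5 of 12514 unchanged genes. How the test performs when same-numbered samples deviate together was not tested. Promoters were read from the RefSeq table of GRCm38.p6. Alternatives were another filter, pseudocount, scaling, set of groups and DMSO set, the replicate block with and without the mitochondrial share, and leaving out each sample or each drug.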

Additional observations from a re-analysis of the deposited data

Results flagged for a closer look

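Dixon's test was applied to the 6 DMSO samples of 89 genes named for the drugs, and in 4 of them the sample at one end stood apart by a gap over range above Dixon's 95% critical value, which chance passes in about 1 of 20 such groups. Cyp51 was at 999 in DMSO set 2 replicate 1 and at 1199 to 1280 in the other 5 samples (gap over range 0.712). DMSO set 2 replicate 2 was the high sample for the other genes. Flt1 was at 64 there and at most 26 elsewhere (0.884), Hif1a at 2501 with the next at 1684 (0.626), and Zbtb9 at 267 with the next at 172 (0.674). These DMSO values enter the comparisons of Cyp51 with each drug, of Flt1 and Hif1a with Apatinib and of Zbtb9 with Telatinib.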

How the results depend on the processing

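No named gene that was called changed direction under any alternative: of 1527 such values 1017 stayed past the threshold and 510 did not. Of 871 values of genes not called, 42 passed and 2 reversed, both Abcg1 with Vandetanib, at -0.08 without Vandetanib replicate 1 and -0.01 without DMSO set 1 replicate 3, against up to 0.256 without Vandetanib replicate 3. Counts of DEGs moved more. With no filter on low values those against DMSO were 165 with Apatinib, 91 with Telatinib, 117 with Vandetanib, 127 with Vatalanib and 103 with the 4 drugs together, and against the other CKIs 171, 133, 172 and 268 with the single drugs. A filter at 50 gave 52 and rescaling by the median of ratios 5 for the drugs together. With DMSO set 1 alone the counts were 11 with Apatinib, 4 with Vatalanib and 2 together, with DMSO set 2 alone 17, 2 and 0, and with only the compared groups in the fit 3, 0 and 76. Leaving out a drug gave 5, 112 and 3 against DMSO without Apatinib, Vandetanib and Vatalanib, and 9, 173 and 0 against the other CKIs without Apatinib, Telatinib and Vatalanib. Leaving out 1 sample at a time, the counts against DMSO ran from 10 to 112 with Apatinib, 0 to 0 with Telatinib and Vandetanib, 0 to 16 with Vatalanib and 3 to 190 together, and against the other CKIs from 1 to 9, 0 to 0, 0 to 2 (2 without Vandetanib replicate 2), 0 to 27 and 3 to 39. The cause of these moves was not tested, beyond the fewer samples or other genes tested.

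In the fit with a replicate block the counts against DMSO were 266 with Apatinib, 5 with Telatinib, 2 with Vandetanib, 127 with Vatalanib and 421 together, and against the other CKIs 89, 0, 1, 238 and 129; with the replicate block and the mitochondrial share they were 509, 5, 2, 171 and 549 against DMSO. Every gene called without the block was also called with it. The pairing was less even for the other drugs than for Apatinib. Of the same-number correlations, 4 of 6 exceeded 0.1 for each of Telatinib (-0.306 to 0.551), Vandetanib (-0.210 to 0.403) and Vatalanib (-0.003 to 0.283). Scaled values hide the depth of each sample, so no floor could be set for genes at 0.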

Other observations

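Nuclear-encoded respiratory chain genes (78 tested) had medians of 0.31 with Apatinib, 0.28 with Telatinib, 0.17 with Vandetanib and 0.19 with Vatalanib against DMSO, without a call. The medians over all genes were 0.03, 0.13, 0.08 and 0.04. Against the other 54 CKIs the respiratory chain list was at 0.11, 0.06, -0.02 and 0.01. Genes of the macrophage identity list had medians of 0.15, 0.45, 0.16 and 0.17 against DMSO, also without a call among 21 tested. Against the other 54 CKIs that list was at -0.19, 0.13, -0.02 and -0.03. Genes of the p53 list had a median of -0.27 with Vatalanib, with no call among 17 against DMSO. The mitochondrially encoded genes were lower than with the other 54 CKIs in 13 of 13 with Apatinib, at a median of -0.73, without a call. The same was so with Vandetanib and Vatalanib, at medians of -0.33 and -0.34, whereas with Telatinib 13 of 13 were higher (0.09). Against DMSO the Apatinib median of these genes was -0.003.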
